A study of Mus musculus with 6 samples.

Results

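The carriers that bring amino acids and transmitters across membranes were described in neuro2a (N2a) cells, a mouse neuroblastoma line, after RNAi against the transcription factor NF-Y. All genes whose symbols start with Slc1a, Slc3a, Slc6a, Slc7a, Slc36a, Slc38a or Slc43a were taken, which gave 67 genes. Of these, 4 (Slc7a6os, Slc36a1os, Slc36a3os and Slc6a19os) are named for lying on the opposite strand of a carrier and share only its symbol stem. A probe was matched for 62 of the 67, and 47 passed the filter on dim probes, of 16490 genes tested in all. Among the 47 were 46 carriers and Slc7a6os.

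RNA was measured on 6 single-colour Agilent mouse arrays. In the Vector group, 3 arrays carried RNA of cells transfected with a control vector. In the YAYC group, 3 carried RNA of cells transfected with miR RNAi vectors that target Nfya (NF-YA) and Nfyc (NF-YC). Per the study's methods, both kinds of vector had the pcDNA6.2-GW/EmGFP-miR backbone, transfection was with Lipofectamine, and cells were kept for 2 days afterwards. The methods name an empty vector and one with a non-targeting miR as controls. The label Vector was read as the empty one, which the labels do not spell out. All values are averages over a transfected culture of 1 line. The labels do not say that replicates came from separate cultures, so p-values measure only the spread between these samples.

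NF-Y joins the NF-YA subunit to a pair of NF-YB and NF-YC, and binds CCAAT motifs in promoters. Cells take up amino acids through carriers that either ride the sodium or proton gradient or swap one amino acid for another. The Slc1a family holds the glutamate carriers of glia and neurons and a pair of neutral amino acid exchangers. The Slc6a family moves transmitters such as GABA, glycine, dopamine and serotonin, as well as taurine, creatine and some amino acids, together with sodium and usually chloride. Slc7a proteins are cationic amino acid carriers or light chains, most of which reach the membrane bound to a heavy chain of the Slc3a family. Slc36a carriers are driven by protons, Slc38a carriers by sodium, and the Slc43a family works without sodium. In neurons these proteins end transmission, recycle glutamine for glutamate and GABA synthesis, and supply leucine and arginine to growth control.

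Levels are given as normalized signal, the log2 of a probe's processed intensity minus the 75th percentile of its array, so that 0 is the 75th percentile. A change is the YAYC mean minus the Vector mean on this log2 scale. Levels of different genes come from different probes and are not set against each other. A gene was called lower or higher when its limma adjusted p was below 0.05 and its fold change above 1.5. The share of spots well above background was between 61.9% and 66.2% over the 6 arrays, and arrays of a group correlated at 0.989 to 0.994 over probes, against 0.987 to 0.990 for arrays of different groups. Nfya fell by 0.76 (SE 0.055, adjusted p = 0.00128) and Nfyc by 1.81 (SE 0.045, adjusted p = 0.000323), the direction the labels give. Nfyb, which was not targeted, rose by 0.83 (SE 0.060, adjusted p = 0.00131). All 12 neuroblastoma and sympathetic neuron markers were well above background on all 6 arrays. The YAYC arrays 2 and 3 lay in the second row of the slide and the other 4 arrays in the first row, so that slide row and group overlapped in part. Since the second row held YAYC arrays only, a change with slide row as a block is that of YAYC array 1 against the Vector arrays.

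Of the 47 tested genes, 4 were called lower (8.51%, against 5.00% of all genes tested) and 3 higher (6.38%, against 3.91%), where 8.90% of all genes were called either way. Slc43a3, Slc6a9, Slc7a14 and Slc7a7 were lower in YAYC, and Slc6a13, Slc38a6 and Slc38a5 were higher. At an adjusted p below 0.05 without a minimum fold, 11 were lower and 7 higher, where the shares over all genes were 15.8% and 15.7%. The arrays of the groups did not overlap for 17 genes that were lower and 10 that were higher in YAYC, where 27.1% and 27.7% of all genes tested did the same. The median change over the 47 was -0.09, beside 0.01 over all genes tested. Without a filter on dim probes the medians were 0.04 over 62 genes and 0.05 over all. These shares are descriptions of the genes that passed the filter and not of all 67.

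**Figure D1:**
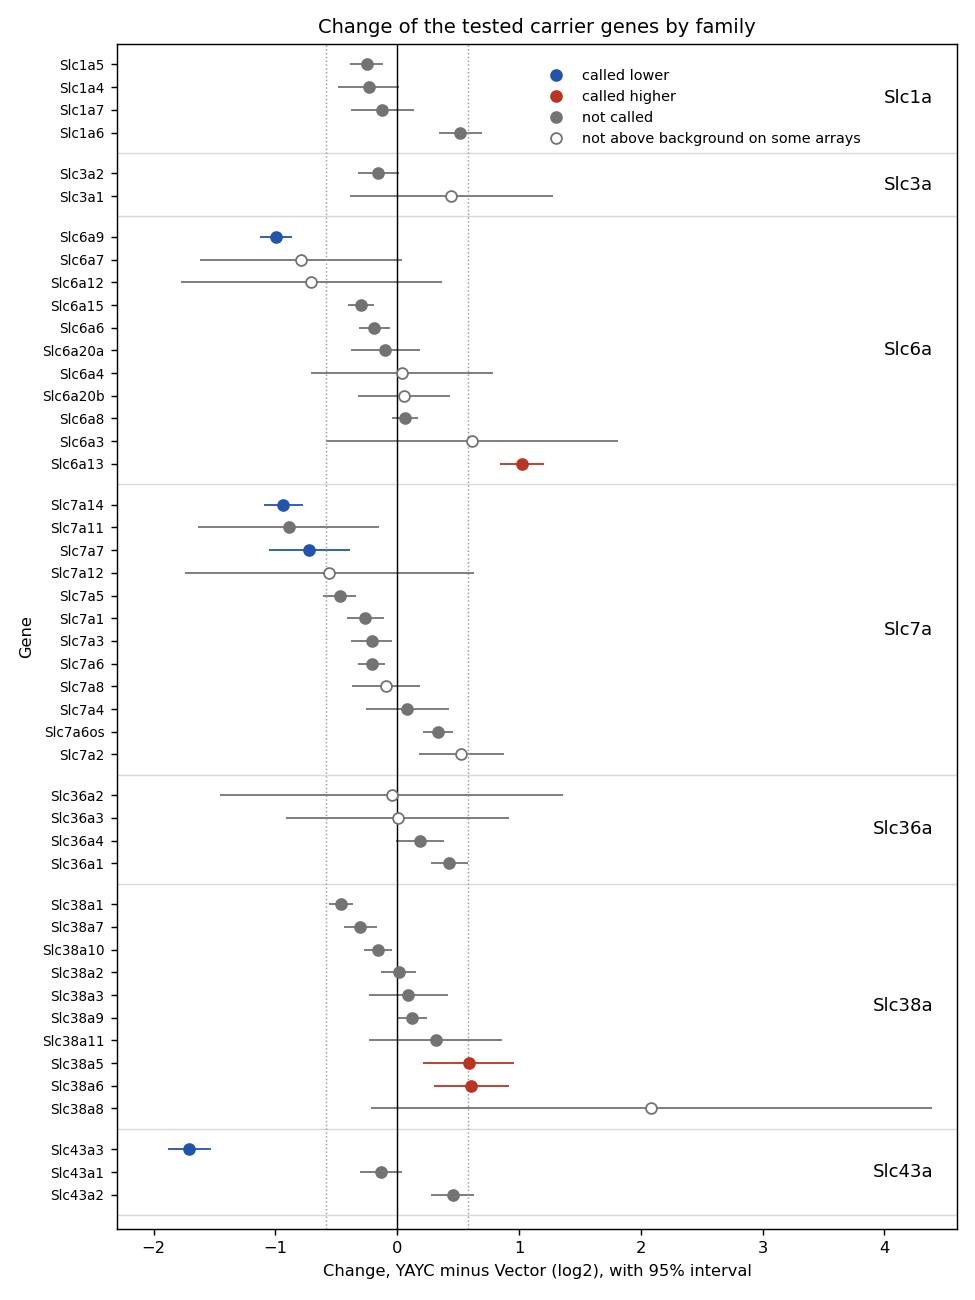
Change of 46 of the 47 tested genes (YAYC minus Vector, log2, horizontal axis) with its 95% interval, grouped by family on the vertical axis, from 3 arrays per group. Blue and red points are genes called lower and higher, grey points are not called, open points lacked signal well above background on at least 1 array, and dotted lines mark a fold of 1.5; the 7 called genes run from -1.71 for Slc43a3 to 1.03 for Slc6a13.

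Promoter sequence was read from RefSeq windows of build GRCm38.p6, each with 250 bases before and 50 bases after a transcript's start, which were found for 49 of the 67 genes. The 250 bases before the start are printed for Slc6a9 and Slc7a14, which were called lower, for Slc6a13, which was called higher, and for Slc43a2, whose window holds the motif in both orientations. All are written 5′ to 3′ on the gene's own strand, and capitals mark CCAAT or its reverse complement ATTGG. Slc6a9 has 3 windows, of which the first along the chromosome is shown. Slc6a13 has 3, of which 2 hold the motif, and Slc43a2 has 2, which both hold it; the printed window of each was picked among those with the motif.
Slc6a9 (chr4:117835008-117835257, plus strand): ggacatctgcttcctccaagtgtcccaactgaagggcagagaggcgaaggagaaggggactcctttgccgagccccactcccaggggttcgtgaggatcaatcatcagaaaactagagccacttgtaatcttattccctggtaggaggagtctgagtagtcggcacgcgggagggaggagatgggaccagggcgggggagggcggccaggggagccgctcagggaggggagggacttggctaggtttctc
Slc7a14 (chr3:31310320-31310569, minus strand): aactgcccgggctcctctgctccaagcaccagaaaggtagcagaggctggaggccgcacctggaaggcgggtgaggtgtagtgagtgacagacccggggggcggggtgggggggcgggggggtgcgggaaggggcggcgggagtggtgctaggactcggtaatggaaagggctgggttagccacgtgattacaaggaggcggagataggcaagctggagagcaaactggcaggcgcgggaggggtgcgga
Slc6a13 (chr6:121300490-121300739, plus strand): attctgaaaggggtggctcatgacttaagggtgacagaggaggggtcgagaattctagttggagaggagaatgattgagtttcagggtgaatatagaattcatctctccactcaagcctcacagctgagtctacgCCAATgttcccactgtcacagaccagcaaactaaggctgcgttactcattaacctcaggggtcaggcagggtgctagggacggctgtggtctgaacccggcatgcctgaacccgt
Slc43a2 (chr11:75531444-75531693, plus strand): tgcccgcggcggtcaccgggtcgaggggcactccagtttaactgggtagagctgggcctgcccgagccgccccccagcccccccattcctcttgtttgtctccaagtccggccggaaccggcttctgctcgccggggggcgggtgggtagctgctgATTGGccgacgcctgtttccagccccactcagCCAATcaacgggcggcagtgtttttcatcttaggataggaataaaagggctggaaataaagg
In the printed Slc6a13 window CCAAT began 115 bases before the start, and in the printed Slc43a2 window ATTGG and CCAAT began 94 and 62 bases before it. No window of Slc6a9, Slc7a14 or Slc7a7 held CCAAT on either strand, so the motif was found in 0 of 3 genes called lower that have a window. It was found in 1 of 3 called higher and in 8 of 26 tested but not called. Over all 49 genes with a window, tested or not, 28.6% had a match in any window, beside 41.1% of all genes in the promoter table. The share was 42.6% of all genes tested, 55.8% of all genes called lower and 36.5% of all called higher. Counted per window and not per gene, it was 37.4% of all windows in the table. A match is a string of letters and not a shown binding site, and a missing match speaks only for these windows.

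Slc43a3 had the largest change of the 47 genes in the lower direction. It carries purine nucleobases, unlike its relatives Slc43a1 and Slc43a2, which carry leucine and other large neutral amino acids. Normalized Slc43a3 signal (probe A_51_P390967) was -1.06, -1.05 and -1.05 on the Vector arrays and -2.68, -2.71 and -2.90 on the YAYC arrays. The groups were far apart relative to their spread. The change was -1.71 (SE 0.070), a 3.27-fold lower signal (adjusted p = 0.000402).

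Slc43a2 signal was -2.02, -1.87 and -1.88 on the Vector arrays and -1.56, -1.44 and -1.41 on the YAYC arrays. It rose by 0.45 (SE 0.068, adjusted p = 0.0097), a 1.37-fold change under the fold threshold. Slc43a1 differed by -0.13 (adjusted p = 0.244) with arrays that did not overlap. The 3 Slc43a genes, all measured above background on every array, held 1 called lower, 1 past the p threshold in the higher direction and 1 past neither. Over all genes tested, 5.00% were called lower, and 15.7% passed the p threshold in the higher direction. Slc43a1 and Slc43a3 lie on chromosome 2 with 1 coding gene between them.

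In the Slc6a family, 12 of 19 genes with a probe were tested. Of these, 1 was called lower and 1 higher, beside 5.00% and 3.91% of all genes tested. Slc6a9 encodes the glycine carrier GlyT1, which clears glycine around glycinergic synapses and NMDA receptors. Its signal (probe A_55_P1973838) was 3.92, 3.85 and 3.83 on the Vector arrays and 2.91, 2.81 and 2.91 on the YAYC arrays. All YAYC arrays lay below all Vector arrays. The change was -0.99 (SE 0.052), or 1.99-fold lower (adjusted p = 0.000609). Another Slc6a9 probe, A_55_P2010788, changed by -0.97 (SE 0.051, adjusted p = 0.00062).

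Slc6a13 encodes GAT2, a GABA and taurine carrier known mainly from liver, kidney and the meninges. Its signal was -3.83, -3.62 and -3.81 on the Vector arrays and -2.72, -2.73 and -2.73 on the YAYC arrays. The YAYC arrays were nearly alike and all above the Vector arrays. The rise was 1.03 (SE 0.070), or 2.04-fold (adjusted p = 0.00112). After normexp background correction with quantile normalization the same contrast was 0.57, under the fold threshold. Slc6a12, the betaine and GABA carrier whose gene lies next to Slc6a13 on chromosome 6, had no array with signal well above background.

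Slc6a15, a neuronal carrier of branched-chain amino acids and proline, fell by 0.30 (SE 0.042, adjusted p = 0.00835). Its signal was 1.15, 1.18 and 1.20 on the Vector arrays and 0.91, 0.85 and 0.87 on the YAYC arrays, without overlap. Slc6a6, the taurine carrier, differed by -0.19 (95% interval -0.31 to -0.06, adjusted p = 0.0503), just outside the p threshold. For Slc6a8, the creatine carrier, the difference was 0.06 (95% interval -0.04 to 0.17, adjusted p = 0.333).

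The Slc6a carriers that clear monoamines were dim. Slc6a2, for noradrenaline, was under the filter with no array well above background. Slc6a4, for serotonin, likewise had no array well above background, and Slc6a3, for dopamine, was so on 1 array of each group. For Slc6a21 a single Vector array read -2.58, while the other 5 arrays lay between -8.35 and -7.26, so this reading rests on 1 array. No probe was matched for Slc6a5 or Slc6a16.

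**Figure D2:**
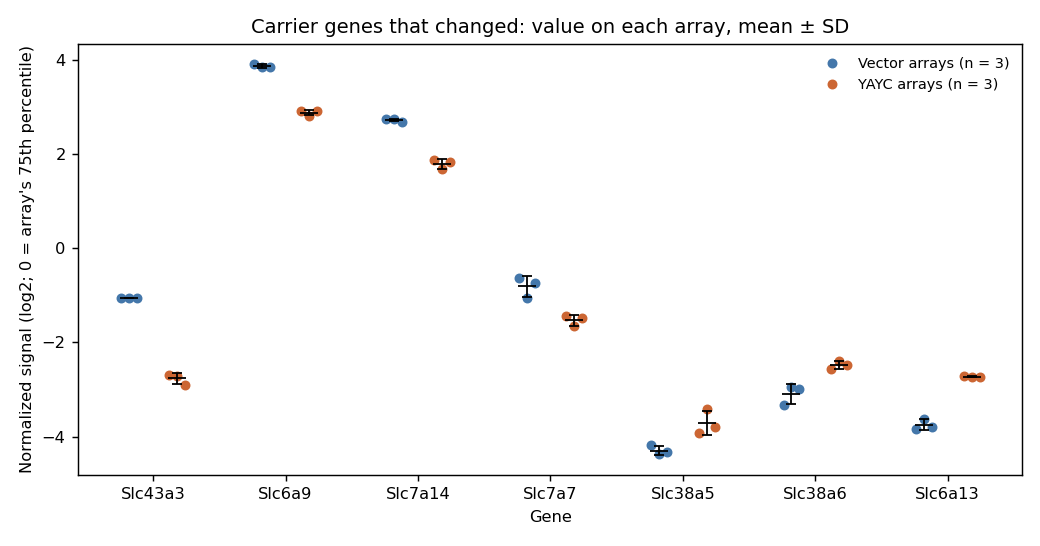
Normalized signal of the 7 called genes on each array (log2, 0 is the array's 75th percentile), with blue points for Vector, orange points for YAYC, and black marks for the mean ± SD of 3 arrays. In each gene the 3 YAYC points lie wholly below (the first 4 genes) or wholly above (the last 3) the Vector points; levels are not comparable between genes.

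Among the cationic amino acid carriers of the Slc7a family (Slc7a1 to Slc7a4 and Slc7a14), 5 were tested and 1 was called lower. The share called lower over all genes tested was 5.00%. Slc7a14 encodes a lysosomal relative of the arginine carriers that is mutated in a form of retinitis pigmentosa. Its signal (probe A_55_P2055127) was 2.74, 2.74 and 2.69 on the Vector arrays and 1.86, 1.67 and 1.82 on the YAYC arrays. The groups were clearly apart. The change was -0.94 (SE 0.063), or 1.91-fold lower (adjusted p = 0.00111).

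Slc7a1, the widely expressed arginine and lysine carrier, had signals of 5.40, 5.25 and 5.26 on the Vector arrays and 5.07, 4.99 and 5.07 on the YAYC arrays. It fell by 0.26 (SE 0.059, adjusted p = 0.0338). Slc7a3, another cationic carrier of neural tissue, differed by -0.21 (adjusted p = 0.0837). Slc7a2 and Slc7a4 also missed the p threshold, and no array was well above background for Slc7a2.

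The heavy chain Slc3a2 and its light chains form the exchangers that trade glutamine for leucine and glutamate for cystine. Slc3a2 signal was 5.98, 6.18 and 6.12 on the Vector arrays and 5.98, 5.91 and 5.93 on the YAYC arrays. The groups nearly touched, and the difference of -0.16 (95% interval -0.32 to 0.01) did not pass the test (adjusted p = 0.163). Of 7 tested Slc7a genes outside the cationic group (6 light chains and Slc7a6os), 3 were lower and 1 higher at an adjusted p below 0.05. The shares over all genes tested were 15.8% and 15.7%. The median change of the 7 was -0.47, which includes Slc7a6os (0.33) and Slc7a12 (-0.56, adjusted p = 0.453). Slc7a12 was well above background on only 1 array, in the Vector group.

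Slc7a7, the light chain of system y+L that exports cationic amino acids, was the only light chain called. Its signal was -0.63, -1.05 and -0.75 on the Vector arrays and -1.44, -1.66 and -1.49 on the YAYC arrays. The Vector arrays spread more than for the genes above, but the groups did not overlap. The change was -0.72 (SE 0.13, adjusted p = 0.017), or 1.65-fold lower. After normexp with quantile normalization it was -0.57, under the fold threshold. With slide row as a block it was -0.63 (adjusted p = 0.139), and without Vector array 3, YAYC array 2 or YAYC array 3 the adjusted p was 0.0581, 0.0568 and 0.0555, so this call depended on single arrays.

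Slc7a5, the leucine exchanger LAT1, had signals of 3.56, 3.44 and 3.48 on the Vector arrays and 3.06, 2.99 and 3.01 on the YAYC arrays. It fell by 0.47 (SE 0.053, adjusted p = 0.00415), or 1.39-fold, on probe A_55_P1973941. Its other tested probe differed by -0.14 (adjusted p = 0.208). Slc7a6, a further y+L light chain, fell from 0.78, 0.72 and 0.78 to 0.57, 0.52 and 0.56, by 0.21 (SE 0.043, adjusted p = 0.0243).

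The gene on the opposite strand, Slc7a6os, is no carrier. Its signal was 2.29, 2.40 and 2.35 on the Vector arrays and 2.71, 2.66 and 2.66 on the YAYC arrays. It rose by 0.33 (SE 0.049, adjusted p = 0.00898), while Slc7a6 fell.

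Slc7a11, the cystine and glutamate exchanger, had signals of -2.25, -2.20 and -2.07 on the Vector arrays and -3.11, -3.61 and -2.48 on the YAYC arrays. The YAYC arrays all lay lower but were spread widely (SD 0.57, against 0.091 on the Vector arrays). The difference of -0.89 (SE 0.29) did not pass the test (adjusted p = 0.0906). It was called lower without YAYC array 3, with a variance trend, and after normexp with quantile normalization.

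Slc7a8, a neutral amino acid light chain, had signals of -5.42, -5.74 and -5.69 on the Vector arrays and -5.69, -5.61 and -5.83 on the YAYC arrays, 1 of which was not well above background. Slc3a1, the heavy chain of kidney and gut, read -5.75, -5.72 and -6.66 on the Vector arrays and -5.72, -5.19 and -5.88 on the YAYC arrays. Both sets overlapped. Slc3a1 was well above background on 2 arrays of each group, and its usual partner Slc7a9, like the light chain Slc7a10, on none.

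The Slc38a carriers of glutamine and other neutral amino acids had 10 tested genes of 11, with 2 called higher and none called lower on the brightest probe. Over all genes tested, 3.91% were called higher and 5.00% lower. Slc38a6, a member whose substrates are less well settled, read -3.33, -2.95 and -2.99 on the Vector arrays and -2.57, -2.40 and -2.48 on the YAYC arrays. All YAYC arrays lay higher. The change was 0.61 (SE 0.12, adjusted p = 0.0219), or 1.53-fold. The call was lost with the array median as the scale and under quantile normalization with or without normexp. The change was 0.52 (adjusted p = 0.165) with slide row as a block, 0.49 and under the fold threshold without Vector array 1, and its adjusted p was 0.0532, 0.0733 and 0.0723 without YAYC array 1, 2 or 3.

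Slc38a5, which exchanges glutamine, serine and glycine against protons, read -4.19, -4.38 and -4.32 on the Vector arrays and -3.92, -3.42 and -3.80 on the YAYC arrays. Its change of 0.59 (SE 0.15, adjusted p = 0.0445) was a 1.501-fold rise at the edge of both thresholds. With slide row as a block, hence on YAYC array 1 alone, it was 0.38 (adjusted p = 0.278). The call was also lost with the array median as the scale, quantile normalization with or without normexp, the series matrix values, no filter on dim probes, and the replicate number as a block (adjusted p = 0.12). Leaving out any 1 array other than YAYC array 1 ended the call, with changes from 0.44 to 0.64 among those arrays.

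Slc38a1, the neuronal glutamine carrier of system A, was read from 3 probes of the same transcript accession. On its brightest probe (A_51_P507053) the signal was 5.46, 5.42 and 5.47 on the Vector arrays and 5.00, 5.00 and 4.98 on the YAYC arrays, a fall of 0.46 (SE 0.039, adjusted p = 0.0019) or 1.37-fold. On probe A_55_P2161640 it was 3.62, 3.71 and 3.68, then 3.04, 2.96 and 2.99 on the YAYC arrays. On probe A_52_P232648 it was 0.30, 0.33 and 0.24, then -0.92, -0.99 and -0.93. All 3 probes passed the p threshold and pointed the same way, but they differed in size, with changes of -0.46, -0.68 and -1.24.

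Slc38a2, the system A carrier whose gene lies next to Slc38a1 on chromosome 15, read 5.21, 5.24 and 5.32 on the Vector arrays and 5.32, 5.20 and 5.28 on the YAYC arrays. Its groups overlapped, and the difference was 0.01 (95% interval -0.13 to 0.16, adjusted p = 0.903). Slc38a4, on the other side of Slc38a2, was under the filter with no array well above background.

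Slc38a7, a lysosomal glutamine exporter, read 1.497, 1.55 and 1.47 on the Vector arrays and 1.17, 1.16 and 1.28 on the YAYC arrays, and fell by 0.30 (SE 0.054, adjusted p = 0.0167). Slc38a9, the lysosomal arginine sensor of mTORC1, differed by 0.12 (adjusted p = 0.133) on its brightest probe and by 0.33 (adjusted p = 0.022) and 0.29 (adjusted p = 0.12) on the others. The largest difference of all 47 genes, 2.09 for Slc38a8, came from YAYC readings of -4.62, -6.30 and -3.12 against Vector readings of -5.83, -7.41 and -7.06. Those arrays overlapped, 3 of the 6 were well above background, and the adjusted p was 0.17.

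**Figure D3:**
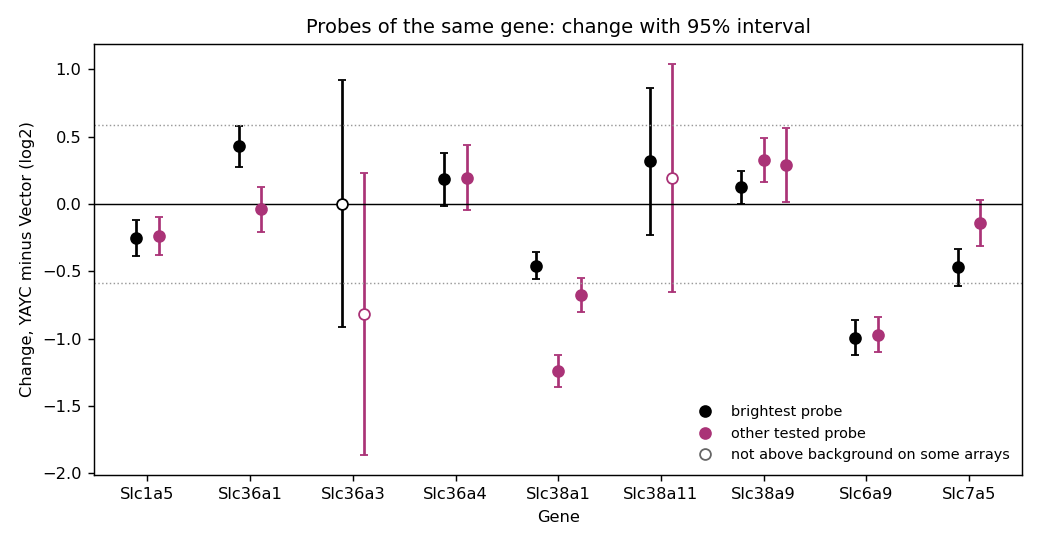
Change (YAYC minus Vector, log2) with its 95% interval for each tested probe of the 9 genes that had several, black for the brightest probe and purple for the others, from 3 arrays per group. Open points lacked signal well above background on at least 1 array and dotted lines mark a fold of 1.5; the Slc6a9 probes coincide near -1, whereas the Slc38a1 probes span -1.24 to -0.46 and the Slc36a1 and Slc7a5 probes differ.

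In the Slc1a family, 4 of 7 genes were tested and none was called in either direction, where 8.90% of all genes tested were called. Slc1a5, the neutral exchanger ASCT2 that brings in glutamine, read 4.75, 4.75 and 4.62 on the Vector arrays and 4.45, 4.45 and 4.46 on the YAYC arrays, a fall of 0.25 (SE 0.052, adjusted p = 0.0253). Slc1a4, the serine and alanine exchanger, differed by -0.24 (adjusted p = 0.159).

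Slc1a6, the glutamate carrier of Purkinje cells, read -3.14, -3.21 and -3.09 on the Vector arrays and -2.51, -2.70 and -2.67 on the YAYC arrays. It rose by 0.52 (SE 0.069, adjusted p = 0.00679), or 1.43-fold. The glial and widespread glutamate carriers Slc1a1, Slc1a2 and Slc1a3 were under the filter, with no array well above background.

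Of the proton-coupled Slc36a carriers, Slc36a1 moves small amino acids out of lysosomes. It read 0.86, 1.0 and 0.86 on the Vector arrays and 1.38, 1.31 and 1.31 on the YAYC arrays. The rise was 0.43 (SE 0.059, adjusted p = 0.00753) on its brightest probe, and the difference was -0.04 (adjusted p = 0.712) on the other. Slc36a4 differed by 0.19 (adjusted p = 0.157) without passing the test. Slc36a2 had no array well above background, and Slc36a3 had 5 of 6.

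The 15 genes under the filter (Slc1a1, Slc1a2, Slc1a3, Slc38a4, Slc6a2, Slc6a11, Slc6a14, Slc6a17, Slc6a18, Slc6a19, Slc6a21, Slc7a9, Slc7a10, Slc7a13 and Slc7a15) were not tested. For 12 of them no array was well above background, and for Slc6a18, Slc6a21 and Slc7a15 a single array was, on the brightest probe. At the other end, 35 of the 47 tested genes were well above background on all 6 arrays, and all 7 called genes were among these.

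Genes that work with the carriers were read from 6 lists of other carriers, amino acid response genes, nutrient sensing, tRNA synthetases, transmitter metabolism and carrier partners. Of 124 tested genes on these lists, 9 were called lower and 6 higher, beside the 5.00% and 3.91% of all genes. Among 14 tested carriers of other families, Slc18a2, which loads monoamines into vesicles, fell by 0.88 (SE 0.044, adjusted p = 0.000549). Slc29a4, a low-affinity monoamine carrier of the plasma membrane, fell by 0.74 (SE 0.055, adjusted p = 0.00138).

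Slc32a1, the vesicular GABA and glycine carrier, read -2.85, -2.64 and -2.72 on the Vector arrays and -1.21, -1.36 and -1.47 on the YAYC arrays. Its groups were well apart, with a rise of 1.39 (SE 0.091, adjusted p = 0.00102). Slc17a6, a vesicular glutamate carrier, was well above background on no Vector array and on 2 YAYC arrays. Its change of 1.64 (SE 0.41, adjusted p = 0.0437) came from signals near or under background. Against a floor for the Vector arrays, the YAYC mean was 1.27-fold higher, a size that the p-value does not test. For this floor, the dimmest signal that still counted as well above background on each Vector array was used, or the probe's signal where higher. The YAYC mean includes array 2 at -6.70, under that floor, so 1.27-fold is not a firm bound.

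Of 27 tested genes of transmitter, taurine and creatine metabolism, 4 were called lower and 1 higher, beside 5.00% and 3.91% of all genes tested. Abat, which breaks down GABA, fell by 0.86 (SE 0.059, adjusted p = 0.00114), and Tph2, the neuronal tryptophan hydroxylase, fell by 0.86 (SE 0.054, adjusted p = 0.000914). Th, the rate-limiting enzyme of catecholamine synthesis, fell by 0.62 (SE 0.048, adjusted p = 0.00154), and Srr, which makes D-serine, fell by 0.64 (SE 0.064, adjusted p = 0.003). Hdc, which makes histamine, rose from -3.63, -3.56 and -3.43 to -1.69, -1.73 and -1.65, by 1.85 (SE 0.066, adjusted p = 0.000331).

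**Figure D4:**
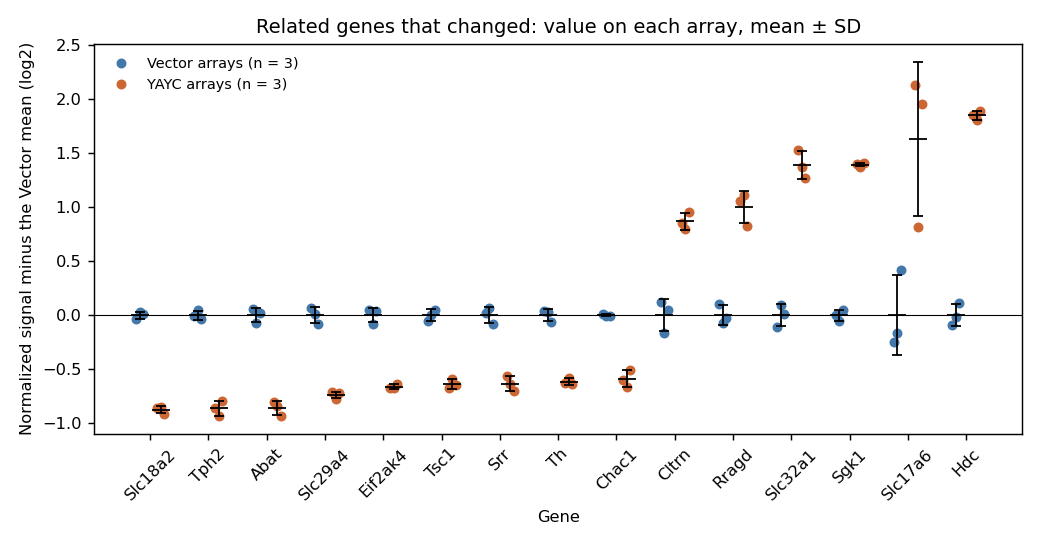
Normalized signal of the 15 called genes of the related lists on each array, as the difference from the gene's Vector mean (log2), with blue points for Vector, orange points for YAYC and black marks for the mean ± SD of 3 arrays. In all 15 the groups lie apart, with YAYC lower in 9 and higher in 6; no Vector array was well above background for Slc17a6, so its plotted size is not a bound.

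Of 25 tested amino acid response genes, 2 were called lower and none higher, beside 5.00% and 3.91% of all genes tested. The 2 were Eif2ak4, the kinase Gcn2 that senses uncharged tRNA, with a change of -0.66 (SE 0.052, adjusted p = 0.00154), and Chac1, which degrades glutathione, with a change of -0.59 (SE 0.055, adjusted p = 0.00237). The Chac1 fall was 1.505-fold, at the edge of the fold threshold. Of 33 tested genes of mTORC1 amino acid sensing, Tsc1, a brake on mTORC1, fell by 0.64 (SE 0.051, adjusted p = 0.0016). Rragd, a Rag GTPase that tethers mTORC1 to lysosomes, rose by 1.003 (SE 0.097, adjusted p = 0.00265).

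None of the 20 cytosolic tRNA synthetase genes was called, where 8.90% of all genes tested were called either way. Gars differed by -0.01 (adjusted p = 0.908). Of 5 tested partners and regulators, Sgk1, a kinase that raises the surface level of several carriers, read 0.95, 0.90 and 1.0 on the Vector arrays and 2.35, 2.33 and 2.36 on the YAYC arrays. It rose by 1.40 (SE 0.046, adjusted p = 0.000323), and Cltrn, a chaperone of kidney Slc6a carriers, rose by 0.87 (SE 0.093, adjusted p = 0.00357).

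Markers of other cell types were also read. Of 4 genes each, 3 astrocyte, 4 oligodendrocyte, 3 microglia and 4 fibroblast markers were well above background on at least 1 array. Astrocyte markers summed, as the log2 of the added normalized signals, to between -2.41 and -2.22 on the Vector arrays and between -2.67 and -2.50 on the YAYC arrays. The microglia sum, 1.15 to 1.66 and then 1.04 to 1.34, was mostly signal of the Csf1r probe, which differed by -0.24 (adjusted p = 0.355). The fibroblast sum was -2.21 to -1.98 and then -2.03 to -1.82, with Col1a1 lower and Pdgfra higher. Such sums weight each probe by its brightness and do not rank the genes. Their part in the changes of the carriers was not tested.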

How the data were processed

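RNA of N2a cells was hybridised to 6 arrays, 3 Vector and 3 YAYC by sample title. The authors extracted features with Agilent software (Feature Extraction 10.10.1.1). The deposited tables hold background-subtracted intensity per spot with flags. The deposited series matrix holds log2 values. Over 43557 single-spot probes its differences between arrays matched the 75th percentile scaling to within 0.00748. No fold changes of the authors were used.

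Control and outlier spots were removed, log2 intensity was taken minus each array's 75th percentile, and spots of a probe were averaged. Probes at or above the 20th percentile on all 3 arrays of a group were tested (42126 of 55681). Symbols came from RefSeq (GRCm38.p6) by unversioned accession, with 25869 of 26392 curated mRNA probes matched, and the brightest probe stood for a gene. Groups were compared with limma 3.58.1 (R 4.3.3; two-sided, Benjamini-Hochberg over all probes tested). The code was tested on simulated data. The number of arrays limits the precision.

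Values on every array were given for called genes, up to 10 genes past the p threshold alone, the brightest gene of each family, and Slc3a2 and Slc3a1 with their light chains as far as detected. From each related list, called genes were named, or the brightest if none. Members and lists were chosen with earlier results of these data known, and nothing here is independent support for them. Slc32a1, Hdc and Sgk1 were given array values after their values were seen. Normexp, planned on mean signals, was run on median signals instead, as the scanner columns at hand held those. Slide row was read from the file headers. Single results for 1 carrier and 1 marker are not reported here. Alternatives were other scalings, background corrections, filters, thresholds, a variance trend, array weights, blocks, probe averaging and leaving out each array.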

Additional observations from a re-analysis of the deposited data

Results flagged for a closer look

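Probes other than the brightest one were not used in the counts. Among the 11 such tested probes of these genes, 2 were called where the brightest probe of the gene was not, both for Slc38a1. Their changes were -1.24 on probe A_52_P232648 (limma adjusted p = 0.000362) and -0.68 on probe A_55_P2161640 (limma adjusted p = 0.00127), each with all YAYC arrays below all Vector arrays. Why the 3 probes differ in size was not tested.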

How the results depend on the processing

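No change of a called gene reversed under any alternative. Scaling to the array median, which moved the median change of all genes to -0.10, kept the 4 genes called lower and 1 called higher, and gave 1118 lower and 398 higher of all genes, against 824 and 644. Quantile normalization left 1 called higher. Normexp with quantile normalization called 4 lower, 3 of them as before with Slc7a11 in place of Slc7a7, and 0 higher (9 at an unadjusted limma p below 0.05 in the higher direction), and 557 and 282 of all genes. Without a minimum fold the counts were 11 and 7, 2602 and 2597 of all genes, and 25 and 14 of the related lists. With a fold above 2 they were 1 and 1, 286 and 181 of all genes, and 0 lower of the related lists (39 at an unadjusted limma p below 0.05). Leaving out 1 array gave 3 to 4 genes lower and 1 to 3 higher, with 1 higher without Vector array 1, YAYC array 2 or YAYC array 3. These counts hold Slc7a2 (higher) without Vector array 2 and Slc6a7 (lower) without Vector array 3, neither with an array well above background. Shares over all genes without each array are not given here, so the counts do not set the carriers apart from other genes.

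Slc43a3 was called under all these settings, Slc6a9 and Slc7a14 under all but the fold above 2, and Slc6a13 under all but normexp. Averaging a gene's probes added Slc38a1 to those called lower. With slide row as a block, estimates rest on YAYC array 1 alone among the YAYC arrays. The changes of Slc7a7, Slc38a6 and Slc38a5 were then -0.63, 0.52 and 0.38, each smaller than with all arrays, and that of Slc1a6 was 0.63. Slc38a5 lost its call under 14 of 21 alternatives and Slc38a6 under 10. Within the first slide row, a comparison chosen after seeing the data, 3 Vector arrays were set against a lone YAYC array assumed to vary like the others. No gene call or count is read from this comparison, since a lone array shows no spread of its own. The changes of Slc43a3, Slc6a9, Slc7a14 and Slc6a13 were then -1.63, -0.96, -0.86 and 1.03.

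Arrays with the same replicate number did not deviate together (correlations of 0.018, 0.067 and 0.0025), so the numbers were not used as pairs. With the replicate number as a block, 5 of the 47 genes were called lower and 2 higher, and 9 and 5 of the related lists. Slc6a7, with no array well above background, was among the 5. Shares over all genes under this block are not given here, so these counts are not read as a trait of the carriers.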
